A study of Drosophila melanogaster with 2 samples.

Results

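The 8 Hox genes of Drosophila melanogaster, lab, pb, Dfd, Scr and Antp of the Antennapedia complex and Ubx, abd-A and Abd-B of the bithorax complex, were described for binding of the nuclear receptor Hr51. They are 8 of 13945 protein-coding genes. The members were chosen by name, not by a measured value, but with earlier results of these data known. Each summit (the position of highest signal in a peak) was taken if it lay in one of these genes, within 1 kb of one, or between neighbouring Hox genes of the same complex. This gave 36 of the 7229 reproducible summits, 17 in or within 1 kb of a Hox gene and 19 between Hox genes. The samples were whole embryos aged 14 to 16 h, both sexes together, from 1 transgenic fly line that stably carries Hr51 with GFP fused to its C-terminus (Hr51-eGFP). Chromatin was sonicated to 200 to 800 bp and precipitated with an antibody against GFP, so the fusion protein was measured and not Hr51 from an untagged gene. The 2 samples formed 1 group, biological replicates 1 and 3 from separate biosamples, and no untagged or mutant embryos were analysed here. Since whole embryos were used, binding in a few cells and weak binding in many cannot be told apart, and peak lists hold no marker of a tissue.

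Hox genes encode homeodomain transcription factors that give the segments of the body their identity along the head to tail axis. Within each complex their order on the chromosome follows the order of the body parts they pattern, and long introns and intergenic stretches hold enhancers, Polycomb response elements and boundary elements that keep each gene active in the right segments. Late in embryonic development they are also active in the nervous system, the gut and muscle. Hr51, also called unfulfilled, belongs to the NR2E group of nuclear receptors, which bind DNA at AAGTCA half-sites.

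Hr51 summits in the Hox complexes lay in introns and between genes, away from the starts of the Hox genes themselves. At least 1 reproducible summit lay in or within 1 kb of 6 of the 8 genes (75%, exact 95% interval 34.9 to 96.8%), against 30.4% of all protein-coding genes. Hox genes are long, from 10.6 kb (Dfd) to 103 kb (Antp), and among the 1865 protein-coding genes at least as long as Dfd the share was 67.7%, inside that interval. Within 1 kb of a transcription start site (TSS) of a Hox gene there was a summit at 0 of 8 genes (exact 95% interval 0 to 36.9%). The share was 23.3% of all protein-coding genes, inside that interval, and 44.3% of those at least as long as Dfd, above it. Summits in or near the gene with none at a TSS, the pattern of 6 of the 8 Hox genes, were found in 23.4% of those long genes. Intervals cover counting error over genes or summits only, neighbouring summits are not independent, and no test was made.

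DNA under the Hox summits is shown for 10 of the 36, to let the strongest sites and the sites with repeated motif letters be read directly. Each run is the 101 bp centred on a summit, plus strand of dm6 (3R), in lower case with the named motif in capitals on whichever strand it lies. Summits are named by their region and numbered from left to right on 3R. The first 3 hold GCCAT, the core of the site for Pleiohomeotic, a DNA-binding protein of the Polycomb group, more than once (ATGGC on the plus strand).
abd-A to Abd-B 3 (chr3R:16869487-16869587): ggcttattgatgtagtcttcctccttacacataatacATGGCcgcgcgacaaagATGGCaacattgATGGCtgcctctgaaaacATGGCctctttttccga
abd-A 1 (chr3R:16811872-16811972): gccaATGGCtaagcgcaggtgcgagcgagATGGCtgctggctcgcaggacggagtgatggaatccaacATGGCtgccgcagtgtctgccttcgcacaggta
abd-A to Abd-B 5 (chr3R:16886615-16886715): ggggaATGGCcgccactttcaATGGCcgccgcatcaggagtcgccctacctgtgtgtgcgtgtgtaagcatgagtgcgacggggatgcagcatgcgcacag

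The next 3 hold CAGGTA, the core of the site for Zelda, a pioneer factor of the early embryo (TACCTG where the match is on the minus strand).
pb 2 (chr3R:6723959-6724059): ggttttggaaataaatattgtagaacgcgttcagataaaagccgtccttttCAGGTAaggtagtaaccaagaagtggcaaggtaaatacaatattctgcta
pb to Dfd 3 (chr3R:6763021-6763121): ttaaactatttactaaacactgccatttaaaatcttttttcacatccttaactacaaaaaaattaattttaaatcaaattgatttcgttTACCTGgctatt
Ubx to abd-A 6 (chr3R:16798828-16798928): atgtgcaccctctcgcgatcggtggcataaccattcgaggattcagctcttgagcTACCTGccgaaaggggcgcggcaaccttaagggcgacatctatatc

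The following pair holds the half-site AAGTCA and has the highest signals among the 4 Hox summits that do.
Antp 6 (chr3R:6936299-6936399): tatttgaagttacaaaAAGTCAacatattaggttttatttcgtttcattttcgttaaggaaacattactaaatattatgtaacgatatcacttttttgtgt
Ubx to abd-A 2 (chr3R:16769547-16769647): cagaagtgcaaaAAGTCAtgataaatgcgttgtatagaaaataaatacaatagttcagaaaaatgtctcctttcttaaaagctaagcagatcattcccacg

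The last pair, shown because they are the strongest Hox summits of all, holds none of the 6 motifs searched.
Antp 2 (chr3R:6912573-6912673): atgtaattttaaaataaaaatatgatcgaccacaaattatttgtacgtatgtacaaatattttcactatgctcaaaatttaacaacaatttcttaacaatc
Abd-B 1 (chr3R:16958198-16958298): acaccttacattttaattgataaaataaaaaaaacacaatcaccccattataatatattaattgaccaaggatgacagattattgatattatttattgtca

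Among the anterior genes, lab and pb each carried weak intronic summits. The gene lab acts in the head and the midgut, and its single summit (lab 1) lay in its 13.7 kb intron, 1555 bp upstream of an internal TSS. The pooled signal of lab 1 was 186, with 96.3 in replicate 1 and 92.8 in replicate 3. Signal is the authors' score for a peak; its scale is not given in the sources used here, and it ran from 135 to 5850 over all reproducible peaks with a median of 270.1. At pb, which gives the adult mouthparts their identity, pb 1 had a signal of 179 and pb 2 of 163, 1343 bp apart in a 15.3 kb intron 19397 and 18054 bp downstream of the pb TSS. All 3 of these summits were matched by a peak in each replicate and ranked between 5319 and 6047 of 7229, so both genes stood in the weaker part of the list.

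Between pb and Dfd, the summits sat around bcd and Ama, which are not Hox genes. The strongest, pb to Dfd 3, had a signal of 483 (rank 1824 of 7229), with 205 in replicate 1 (rank 1990 of its 30000 peaks) and 282 in replicate 3 (rank 1762). It lay 333 bp upstream of a TSS of Ama, a gene for a secreted protein of the immunoglobulin family, and in introns of Ama and lncRNA:CR45593. A summit 172 bp upstream of the TSS of bcd, the maternal gene that patterns the anterior egg, had a signal of 219, and only replicate 3 had a peak there (153). The middle one, pb to Dfd 2, had a signal of 277 and peaks of 159 in replicate 1 and 118 in replicate 3. The homeobox genes zen, which patterns dorsal extraembryonic tissue, and zen2, its close relative, had no reproducible summit in the gene or within 1 kb.

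Dfd, which specifies the mandibular and maxillary segments, and Scr, which specifies the labial and first thoracic segments, had no reproducible summit. Neither had one in the longer pooled list of 30000 peaks. Between Dfd and Scr stood 3 reproducible summits, 1764 and 1993 bp apart, all matched in both replicates. Dfd to Scr 3, the strongest, had a signal of 348, with 167 in replicate 1 and 169 in replicate 3. Dfd to Scr 2 (signal 201) lay 373 bp upstream of the TSS of the noncoding gene lncRNA:CR42651, and Dfd to Scr 1 (signal 143) lay in its intron. From Dfd to Scr 3 to the first summit in Antp, 84701 bp held no reproducible summit, a stretch that includes Scr and the pair-rule homeobox gene ftz. It is the longest such gap in either complex, as the plot of the Antennapedia complex shows.

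**Figure D1:**
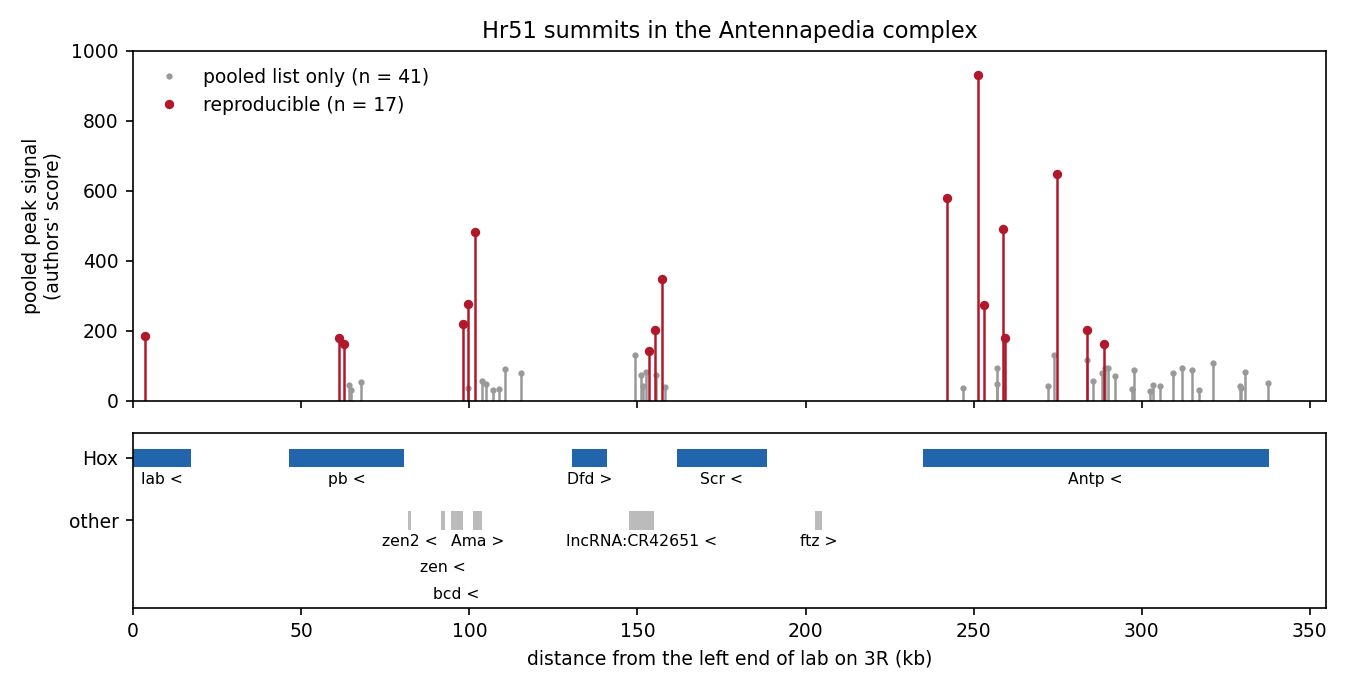
Pooled peak signal (the authors' score, vertical axis) of each summit along the Antennapedia complex in kb from the left end of lab; red, the 17 reproducible summits, grey, the 41 weaker summits found only in the pooled list, bars below, genes with their direction of transcription. The highest points, up to 932, are in the left 62 kb of Antp, and the stretch over Scr and ftz is empty.

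Antp, which gives thoracic segments and legs their identity, held 8 of the 36 summits, the most of any Hox gene, and 4 of the 10 strongest were in it. Antp 2 had the highest signal of all Hox summits, 932 (rank 673 of 7229), with 435 in replicate 1 (rank 608) and 489 in replicate 3 (rank 781). Antp 6 had a signal of 647 (rank 1221), with 281 in replicate 1 (rank 1270) and 377 in replicate 3 (rank 1179). Antp 2 lay 20217 bp downstream and Antp 6 lay 3509 bp upstream of the same internal TSS, at 6932840 on 3R. Antp 1 had a signal of 578 (rank 1433), with 239 in replicate 1 (rank 1637) and 335 in replicate 3 (rank 1398), and lay in an exon of lncRNA:CR43252 inside an Antp intron. Antp 4 had a signal of 491 (rank 1778), with 195 in replicate 1 (rank 2137) and 296 in replicate 3 (rank 1652). These 4 strong summits kept a similar place in both replicates, and the other 4 were weaker: Antp 3 had a signal of 272, and Antp 5, 7 and 8 ran from 162 to 202.

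The Antp summits were unevenly placed along the gene. The 36.6 kb from the 3′ end to the internal TSS held 5, and the next 25.5 kb, up to the TSS at 6958370, held 3. The last 40.9 kb, up to the most distal TSS at 6999228, held 0 reproducible summits but 14 of the weaker pooled ones. All 8 also lay in introns of CG46458, a protein-coding gene annotated over the same DNA, so the summits cannot be given to Antp alone. Of the 82 protein-coding genes at least as long as Antp, 79.3% had a summit and 31.7% had 8 or more, so the number of summits in Antp was not rare for its length.

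Ubx, which gives the posterior thorax and the first abdominal segment their identity, held 4 summits, 3 of them below the median signal of the list. Ubx 3, the strongest, had a signal of 273 (rank 3582), with 106 in replicate 1 (rank 4652) and 164 in replicate 3 (rank 3377), and lay 29977 bp downstream of the Ubx TSS. Ubx 2 lay 1929 bp from it in the same 51.5 kb intron, with a signal of 151. Ubx 4 lay in a second intron with a signal of 136, near the lowest of the whole list, and had no peak in replicate 1. Ubx 1 (signal 214) lay 544 bp past the 3′ end of Ubx and 417 bp upstream of the TSS of modSP, a gene for a serine protease of the immune response, and is a member only through the 1 kb margin.

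The 70.8 kb between Ubx and abd-A held 7 summits, and 3 of them were among the 10 strongest Hox summits. Ubx to abd-A 6 had a signal of 530.2 (rank 1600), with 139 in replicate 1 (rank 3324) and 389 in replicate 3 (rank 1124). Its signal differed more between the replicates than that of any other matched Hox summit, by 1.48 on the log2 scale. Ubx to abd-A 5 was more even, with a signal of 464 (rank 1935), 224 in replicate 1 (rank 1786) and 244 in replicate 3 (rank 2118). Ubx to abd-A 2 had a signal of 401 (rank 2291), with 152 in replicate 1 (rank 2958) and 253 in replicate 3 (rank 2024). It is 1 of 3 summits in introns of lncRNA:bxd, a noncoding RNA gene of the bithoraxoid region upstream of Ubx. A weaker pair lay at starts of other noncoding genes: Ubx to abd-A 4 (signal 158) was 511 bp downstream of the TSS of lncRNA:CR44945, and Ubx to abd-A 7 (signal 196) was 48 bp upstream of that of lncRNA:TS16 and 651 bp downstream of that of lncRNA:CR45750.

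The gene abd-A, which patterns the middle abdominal segments, had 1 summit, in its 12.1 kb intron and 16183 bp downstream of the nearest abd-A TSS. Its signal of 141 (rank 6975) was close to the lowest in the list, with 80.3 in replicate 1 and 70.1 in replicate 3. Its window was the one with 3 GCCAT matches, and its GC content was 61.4% where the median of the Hox windows was 29.2%.

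The 95.2 kb between abd-A and Abd-B held 6 summits, and all 6 lay in introns of lncRNA:iab8, a long noncoding RNA that runs across the regulatory domains of the abdomen and contains mir-iab-8. Of these, 5 also lay in introns of MSAmiP, annotated on the same strand. The strongest, abd-A to Abd-B 3, had a signal of 794 (rank 886), with 361 in replicate 1 (rank 852) and 441 in replicate 3 (rank 926). Its peak ran from 16869263 to 16869725 on 3R, and 4 GCCAT matches stood in the window around its summit. The other 5 had signals of 208 to 304, and 1 of them, abd-A to Abd-B 6, had no peak in replicate 1. Polycomb response elements and boundary elements have no coordinates in the annotation used here, so no summit was assigned to one.

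Abd-B, which patterns the posterior abdomen and the genitalia, had a single reproducible summit, and it was the second strongest of the 36. Its signal was 833 (rank 822), with 399.6 in replicate 1 (rank 712) and 416 in replicate 3 (rank 1013). The peak ran from 16958041 to 16958513 on 3R in a 15.7 kb intron, and its summit lay 2033 bp downstream of the nearest of the 6 Abd-B TSSs. No weaker pooled summit was present in Abd-B, and the nearest reproducible summit on the left was 50.2 kb away, as the plot of the bithorax complex shows.

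**Figure D2:**
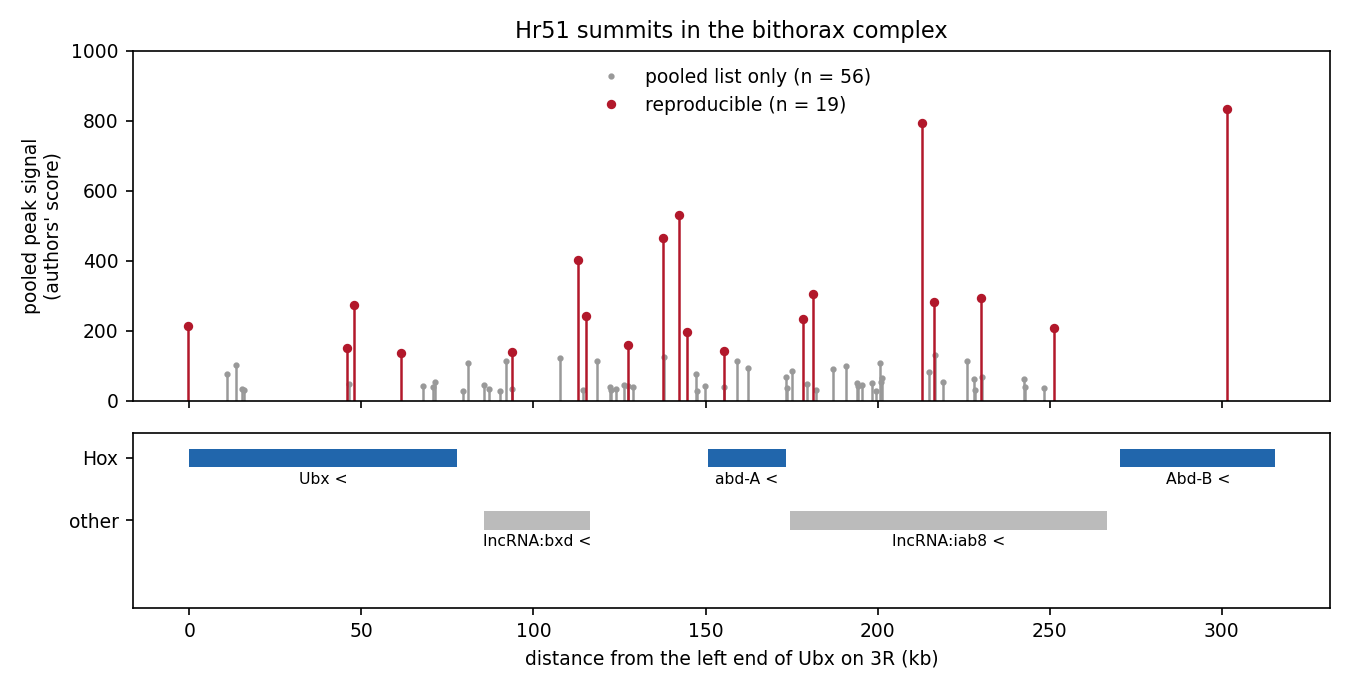
Pooled peak signal (the authors' score, vertical axis) of each summit along the bithorax complex in kb from the left end of Ubx; red, the 19 reproducible summits, grey, the 56 weaker summits found only in the pooled list, bars below, genes with their direction of transcription. Reproducible summits are spread between Ubx and Abd-B, and Abd-B holds 1 isolated summit at 833.

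As a set, the Hox summits were of ordinary strength. Their median signal was 237 (range 136 to 932), beside 270.1 for all reproducible summits and 242 for the 3865 reproducible summits more than 1 kb from any TSS. Summits in the Hox genes had a median of 202 and those between them 277. Among the 3614 strongest of the 7229 were 17 of the 36, and in its top 1000 were 3 (8.33%, beside 13.8% of all). Only 6 of 36 lay within 1 kb of a TSS of any gene (16.7%, exact 95% interval 6.37 to 32.8%), against 46.5% of all reproducible summits. The median distance to the nearest TSS was 4196 bp for the Hox summits and 1203 bp over all. None of the 36 lay in an annotated transposon, and the median GC content of their windows was 29.2% (14.9 to 62.4%), beside 29.7% over all.

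Summits were about as dense in the complexes as elsewhere. The Antennapedia complex held 17 in 338 kb, or 5.03 per 100 kb, and the bithorax complex 18 in 316 kb, or 5.70 per 100 kb, without Ubx 1, which lies outside it. The whole arm 3R had 5.20 and all chromosome arms 5.40 per 100 kb. Counting only summits more than 1 kb from any TSS, the densities were 4.14 and 5.07 per 100 kb in the complexes and 2.89 over all arms. These densities still divide by the whole length, including the DNA within 1 kb of a TSS. The share of such DNA in the complexes and over all arms was not measured, so these values are not directly comparable. Inside the Hox gene bodies the density was 4.74 per 100 kb, and inside other genes at least as long as Dfd it was 5.48. Distances between neighbouring Hox summits had a median of 9782.5 bp, and 10 of 34 were under 3 kb, the shortest being 642 bp between Antp 4 and Antp 5.

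The 19 TSSs of the Hox genes were all more than 1 kb from a reproducible summit. The nearest such summit was 1555 to 48955 bp away, with a median of 13499 bp. The longer pooled list had a summit within 1 kb of 5 of these TSSs, all 3 of Antp and 2 of abd-A, so 2 of 8 genes had one against 38.3% of all protein-coding genes. At abd-A the nearest pooled summit lay 14 bp downstream of the most distal TSS with a signal of 66.5 (rank 13907 of 30000). Neither that summit nor a weaker one 190 bp upstream of the same TSS (signal 36.2) had a peak in replicate 1. Within 1 kb of the Antp TSSs the pooled signals ran from 33.8 to 86.8. Those of 86.8 and 50.4 had a peak in both replicates, that of 42.6 only in replicate 3, and that of 33.8 in neither. Shares of genes at least as long as Dfd are not given for the pooled list or for a single replicate. In replicate 3, whose highest 7229 peaks put a summit within 1 kb of a TSS at 24.9% of all genes, 1 Hox gene had one, Dfd.

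That Dfd summit, at −438 bp from the TSS, had a signal of 269 in replicate 3 (rank 1878), and neither replicate 1 nor the pooled list had a peak there. A summit in an Abd-B intron, 1415 bp upstream of a TSS, had a signal of 325 in replicate 3 (rank 1460) and was likewise missing from replicate 1 and the pooled list, as was one between Scr and Antp with a signal of 161 (rank 3440). Among the highest 7229 peaks of replicate 3, 42 fell in the Hox regions, and 9 of these (21.4%) had no match in replicate 1, against 6.64% of all its highest peaks. Of the 42, 8 (19.0%) had no match in the pooled list, against 5.05% of all. The highest 7229 of replicate 1 put 34 summits in the Hox regions, and 0 of these lacked a match in replicate 3, against 3.39% of all. The summit at the Dfd promoter and the one of signal 325 in an Abd-B intron therefore rest on 1 library.

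**Figure D3:**
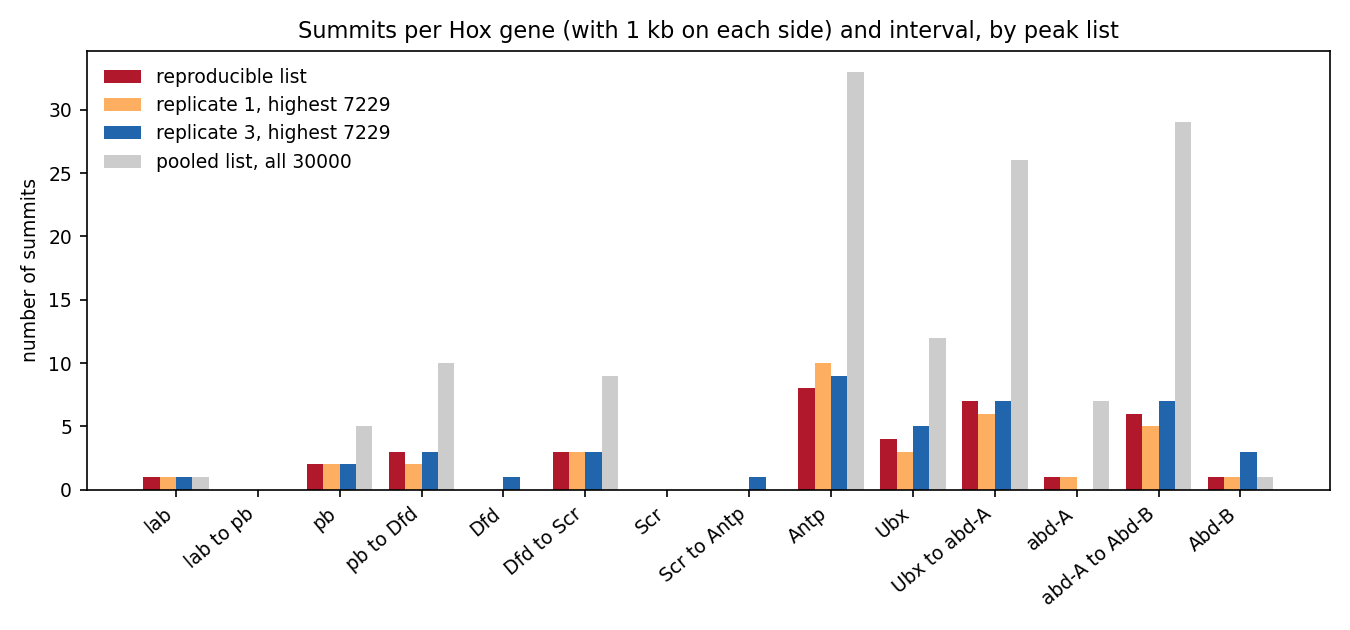
Number of summits (vertical axis) in each Hox gene with 1 kb on each side and in each interval between Hox genes, for the reproducible list, the highest 7229 peaks of replicate 1 and of replicate 3, and all 30000 pooled peaks. The reproducible list and both replicates put the most summits in Antp (8, 10 and 9), and Dfd and the interval from Scr to Antp have a bar only for replicate 3.

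Most of the 36 summits were found in both replicates. A peak of both replicates overlapped 33 of 36 (91.7%, exact 95% interval 77.5 to 98.2%), against 97.3% of all reproducible summits, which lies inside that interval. All 36 were matched in replicate 3, and the 3 without a match in replicate 1 were pb to Dfd 1, Ubx 4 and abd-A to Abd-B 6. Positions agreed closely: the replicate summits lay a median of 9 bp (replicate 1) and 15 bp (replicate 3) from the reproducible summit, and at most 62 and 74 bp. The median ranks were 3986 in replicate 1 and 4082.5 in replicate 3, of 30000 peaks each. The reproducible list was made from these same replicates and holds the 7229 highest pooled peaks, so a high matched share is partly built in. Any overlap of at least 1 bp counted as a match. Under a stricter rule of reciprocal overlap 24 of the 36 were matched in both replicates. Among only the highest peaks of each replicate it was 25. The shares of all reproducible summits under these stricter rules are not given here.

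Over the 33 summits matched in both, the correlation of log2 signal between the replicates was 0.816 (Pearson) and that of ranks 0.748 (Spearman). Both describe summits that share 2 libraries. Signal was higher in replicate 3 at 24 and in replicate 1 at 9, and the median log2 ratio of replicate 3 to replicate 1 was 0.22, beside 0.27 over all matched summits. Single Hox summits ran from −0.90 (Ubx to abd-A 4) to 1.48 (Ubx to abd-A 6). The plot of signals in both replicates sets the Hox summits beside the whole list, whose log2 ratios had quartiles of −0.03 and 0.54.

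**Figure D4:**
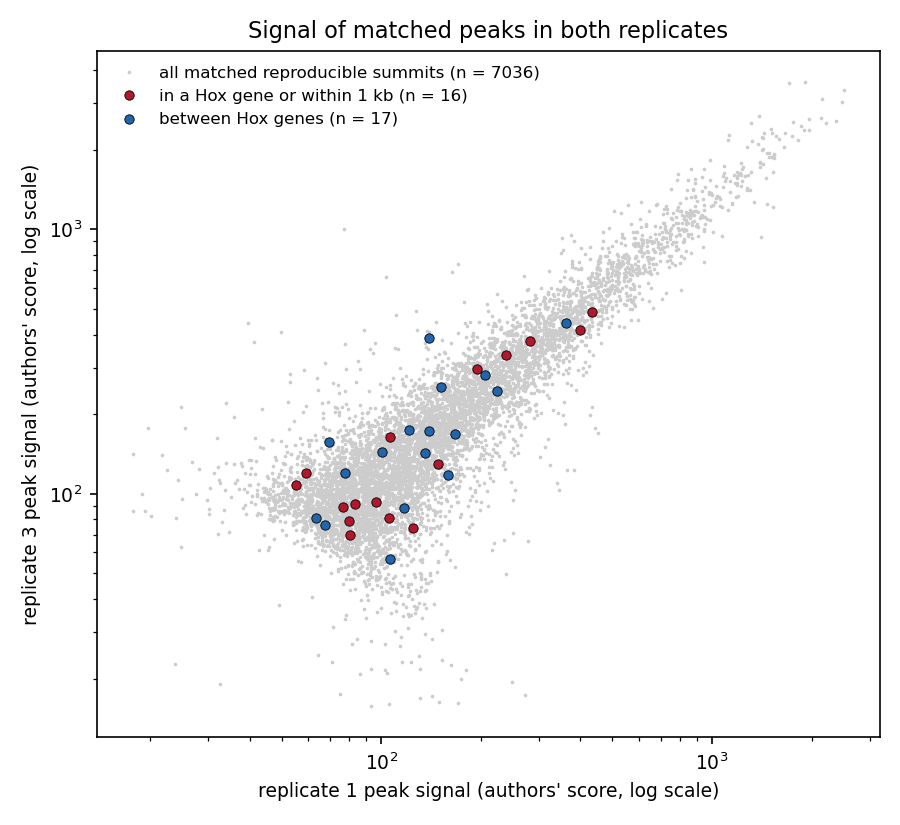
Signal of matched peaks in replicate 1 (horizontal axis) and replicate 3 (vertical axis), both the authors' score on log scales; grey, all 7036 matched reproducible summits, red, the 16 in or within 1 kb of a Hox gene, blue, the 17 between Hox genes. Most Hox points lie in the dense part of the grey cloud, and the blue point that stands above it is Ubx to abd-A 6 (139 and 389).

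Below the reproducible list, the pooled list added 97 weaker summits in the Hox regions, of which 60 had a peak in both replicates. The share over all weaker pooled summits is not given here. Some of the 60 matched the same replicate peaks as a reproducible summit, such as the one at 16794597 with those of Ubx to abd-A 5. The 60 are therefore not all separately replicated sites. Antp gained 25, the interval from abd-A to Abd-B 23, the interval from Ubx to abd-A 19, and Ubx 8. No summit of either kind fell in 4 of the 14 regions: Dfd, Scr, the interval from lab to pb and the interval from Scr to Antp. The longest stretch without a pooled summit was 84.0 kb around Scr and ftz, and 50 of the 29994 gaps between neighbouring pooled summits were at least as long; replicate 1 had 0 peaks in it and replicate 3 had 3. A gap of 57.7 kb ran from lab 1 to pb 1 across the cuticle protein genes Edg84A and Ccp84Aa to Ccp84Ag, a gap of 50.2 kb ended at Abd-B 1, and one of 33.9 kb held Dfd. The median gap over all arms was 1.36 kb. Over the whole complexes the pooled density was 17.2 per 100 kb in the Antennapedia and 23.4 in the bithorax complex, beside 22.4 over all arms.

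Motif letters in the 101 bp windows were compared with those at all 7229 reproducible summits, on both strands. AAGTCA, the half-site of the NR2E group, was in 4 of 36 windows (11.1%, exact 95% interval 3.11 to 26.1%), against 5.92% of all. CAGGTA was in 5 (13.9%, interval 4.67 to 29.5%), against 1.62%, and GCCAT was in 10 (27.8%, interval 14.2 to 45.2%), against 11.8%. GAGAG, the core for GAGA factor, was in 2 (5.56%) against 8.30%, TGATNNAT, a composite of a Hox protein with its cofactor Exd, in 3 (8.33%) against 10%, and TATCGAT, the core for DREF, in 1 (2.78%) against 1.92%. The intervals of CAGGTA and GCCAT lay above the share of all windows, and those of the other 4 motifs included it. The motifs were chosen with earlier results of these data known, and neighbouring summits are not independent. The windows were also not matched for GC content. Most windows with GCCAT had more GC than the Hox median of 29.2%, up to 62.4% in abd-A to Abd-B 5. Those of pb to Dfd 3 (22.8%) and Ubx to abd-A 7 (21.8%) had less. The intervals are therefore a description, and an excess was not tested.

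The motif matches are described here by region, and an uneven spread was not tested. GCCAT was in 3 of the 17 windows in or within 1 kb of Hox genes and in 7 of the 19 between them. Of its 10 windows, 7 were in the bithorax complex, to which 19 of all 36 windows belonged. The most matches in 1 window, 4, were in abd-A to Abd-B 3, followed by abd-A 1 with 3 and abd-A to Abd-B 5 with 2, as printed above. Those last 2 windows also held CAGGTA. None of the 6 motifs was in 18 of the 36 windows, among them Antp 2 and Abd-B 1, the strongest of all. The share of all reproducible windows with none of them is not given here, so 18 of 36 cannot be called high or low. A match is only a run of letters, these motifs are short, and 6 were searched, so no site was assigned to a protein.

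**Figure D5:**
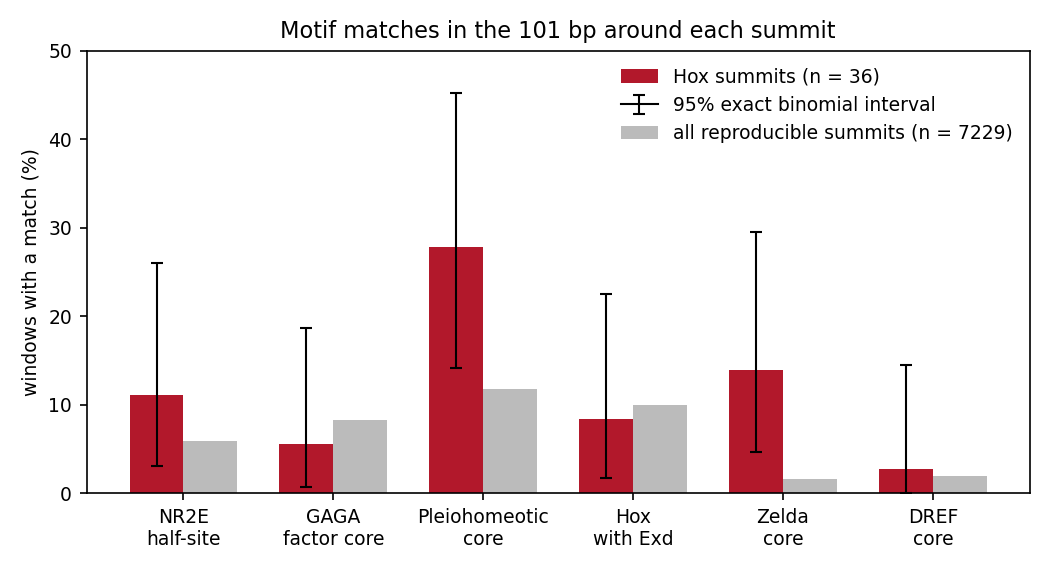
Share of 101 bp windows with a match (percent, vertical axis) for 6 motifs; red, the 36 Hox summits with exact 95% binomial intervals as error bars, grey, all 7229 reproducible summits. The red bars of the Pleiohomeotic core GCCAT (27.8%) and the Zelda core CAGGTA (13.9%) stand above the grey bars with intervals that do not reach them. The motifs were chosen with earlier results of these data known and the windows were not matched for GC content, so the intervals only describe the counts.

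Genes that work with Hox proteins differed widely in the number of summits and in length. The cofactor gene hth, whose homeodomain protein carries Exd into the nucleus, held 12 reproducible summits, 1 of them within 1 kb of a TSS, and the strongest had a signal of 1003 (rank 603; rank 911 in replicate 1 and 499 in replicate 3). Its partner exd had none. The gene disco-r, for a zinc-finger protein of the gnathal segments, had 1 summit with a signal of 538, and its relative disco had none. The trunk genes tsh and tio had none either. At 132 kb, hth is longer than any Hox gene, and disco-r is 30.9 kb long. The genes with none were short, from 4.04 kb (exd) to 8.42 kb (tsh). Over all protein-coding genes, 30.4% had a summit in the gene or within 1 kb.

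Antp was not alone in holding many summits with none at its own TSSs. Among the 992 protein-coding genes with that pattern the median number of summits was 1, and 15 genes had at least 8. These 15 include Antp itself and CG46458, whose 8 summits are the same as those of Antp. The 3 with the most were kirre, a gene for an adhesion protein of myoblast fusion, with 34 in 394 kb, fz, a Wnt receptor gene, with 13 in 94.3 kb, and SKIP with 12 in 162 kb. Likeness here means only the number of summits, over the single reproducible list.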

How the data were processed

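ChIP-seq peak lists of Hr51-eGFP were used for 2 samples in 1 group, so there was no contrast between conditions and no test was made. Each replicate had a list of 30000 peaks; a pooled list and a list thresholded by irreproducible discovery rate (IDR), here called reproducible, covered both. Text files deposited with the samples derive each list from the alignments and a further file that is also behind the control-normalized signal. For the aligner, the caller and the settings, nothing is given in the sources used here. Deposited by the authors were a score for each peak, called signal and used only to rank and describe peaks within a list, and a −log10 q-value, which was not used. Read counts were not used, so depth is unknown.

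Coordinates are dm6, per the labels. Genes and transposons came from Ensembl release 115 (BDGP6.54) and DNA from the NCBI RefSeq genome of the same assembly. Peaks matched by an overlap of at least 1 bp, with the nearest summit taken. Motifs were searched within 50 bp of each summit on both strands. Intervals for shares are Clopper-Pearson at 95%. Code in Python 3.11.15 (NumPy 2.4.6, SciPy 1.17.1, matplotlib 3.10.9) was tested on simulated data. Alternatives were shorter, longer and single-replicate lists, other margins and matching rules, a wider motif window and counting shared intervals once. For motifs, alternatives were run for AAGTCA only.

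The members, motifs and lists were chosen with earlier results of these data known. Named genes are the 8 Hox genes; genes in the complexes with a summit in them or within 1 kb of a TSS; ftz, zen, zen2, bcd and Ama; exd, hth, tsh, tio, disco and disco-r; and the 3 genes with the most summits and none at a TSS. The 10 strongest Hox summits have full values. The summits found only in replicate 3 and the cuticle genes in a long gap were named after their values were seen.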

Additional observations from a re-analysis of the deposited data

How the results depend on the processing

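Of 52 alternatives over 9 results, 31 kept the value within bounds (1.5 times for a count, 14.7, the SD of the replicate medians, for the median signal). The other 21 came with a longer, shorter or single-replicate list or a wider distance from the TSS. Among the 3614 strongest reproducible summits, 3 Hox genes had a summit, with 7 summits in or within 1 kb of Hox genes and 10 between them. Of these, 17 of 17 were matched in both replicates, and 2 of 17 windows held AAGTCA. The densities were 2.37 and 2.85 per 100 kb in the Antennapedia and bithorax complex, and the median signal was 464. With all pooled peaks, 2 genes had a summit within 1 kb of a TSS, and 59 summits were in or within 1 kb of Hox genes and 74 between. Of these, 93 of 133 were matched in both replicates, and 8 of 133 windows held AAGTCA. The densities were 17.2 and 23.4, and the median signal was 77.7. Counts and densities change with the length of a list, so they are not directly comparable between these lists. Within 2 kb of a TSS, 1 gene had a summit, lab. With each replicate alone, cut to its highest 7229 peaks, genes with a summit within 1 kb of a TSS ranged from 0 to 1. Summits in genes ranged from 18 to 21, and summits between from 16 to 21. Matched summits were 34 of 34 in replicate 1 and 33 of 42 in replicate 3. A peak always matches its own list, so these counts reflect only the match in the other replicate. Densities ranged from 5.33 to 5.92 in the Antennapedia and from 4.44 to 6.34 in the bithorax complex. Windows with AAGTCA were 5 of 34 in replicate 1 and 2 of 42 in replicate 3. The median signal ranged from 123 to 144, on each replicate's own scale. Genes with a summit numbered 6 in both, but in replicate 3 Dfd had one and abd-A had none. No paired analysis was possible because there is only 1 group.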
